A study of Mus musculus with 6 samples.

Results

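The genes that encode collagen chains in the embryonic mouse lung were described by structural class and compared between control and *Rptor*-deficient lungs at embryonic day E11.5. They were taken from the expression table by symbol (Col, a number, the letter a and a number), which found 44 of the 23420 listed genes. Of these, 11 encode chains of fibrillar collagens, 9 of fibril-associated collagens, 6 of the basement membrane collagen, 6 of beaded filament collagens, 4 of transmembrane collagens, 3 of hexagonal network collagens, 2 of multiplexins and 1 of the anchoring fibril collagen, and 2 belong to none of these classes. The whole lungs were dissected at E11.5 (days *post coitus*). The labels of the samples give the control lungs as *Rptor* f/+; *Shh* Cre/+ and the mutant lungs as *Rptor* f/f; *Shh* Cre/+, so that by these labels every lung carried the *Shh* Cre allele and at least 1 floxed allele of *Rptor*, which encodes a core subunit of the growth regulator mTORC1. The study's supplement names the controls of this stage by *Shh* Cre/+ alone, so whether the controls had a floxed allele, and were heterozygous for *Rptor* where Cre acts, is less certain than the genotype of the mutants. *Shh* Cre recombines in the lung epithelium, while RNA was taken from the whole lung. Each group had 3 pools, each made of 3 or 4 lungs of the same genotype, and n = 3 pools holds for every mean given here.

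Collagen chains fold by threes into a triple helix, either with copies of themselves or with partner chains. Fibrillar collagens (types I, II, III, V, XI, XXIV and XXVII) pack into the cross-banded fibrils of connective tissue, and fibril-associated collagens sit on the surface of these fibrils. Type IV collagen forms the sheet-like network of basement membranes, which in the lung underlies the epithelium and blood vessels, and mesenchymal cells make most of the fibrillar collagen. During branching of the airways the epithelium grows into a mesenchyme that holds both kinds of matrix.

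A normalized count is the number of reads of a gene divided by a factor for the depth of its library. The libraries held between 20197642 and 21276090 reads over genes. *Rptor* (chr11:119602905-119899576 in mm10) had normalized counts of 2126, 2193 and 2279 in control pools 1 to 3, against 2023, 2137 and 2148 in mutant pools 1 to 3, and the groups overlapped (log2 fold change -0.06 ± 0.05, standard error, limma adjusted p = 0.584). The count covers the whole gene in all cells of the lung, so it does not check the epithelial deletion itself. All 20 epithelial marker genes were detected. Of these, 7 were lower and 0 higher in the mutant lungs at an adjusted p under 0.05, where 0.315% of all tested genes were lower. At an unadjusted p under 0.05, 18 were lower and 1 (*Krt19*) was higher, against 6.89% and 6.67% of all tested genes. The summed normalized count of the 20 markers was 21777 to 26806 in control pools and 17954 to 19166 in mutant pools. None of the 19 mesenchymal markers passed the test in either direction (5 were higher and 0 lower at an unadjusted p under 0.05), but their sum was 68953 to 71304 in control pools and 75087 to 75354 in mutant pools. In RNA of whole lungs, fewer cells of a type and less RNA per cell cannot be told apart, and the part of these shifts in the collagen values was not tested beyond the scaling to mesenchymal markers given beside the first results.

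Differences are given as log2 fold changes of (normalized count + 1), mutant over control, with the standard error of the limma fit. Genes are said to have risen or fallen where the p adjusted over all 17168 tested genes (Benjamini-Hochberg) was under 0.05. All 44 collagen genes could be tested, although *Col10a1* and *Col28a1* had a mean normalized count of about 1 or 2. Over all tested genes, 0.186% rose and 0.315% fell in the mutant lungs. Among the collagen genes 4 of 44 (9.09%) rose: *Col1a1*, *Col1a2* and *Col3a1* of the fibrillar class and *Col9a2* of the fibril-associated class. No collagen gene fell at this threshold with limma, with or without each pool, nor with edgeR on recovered reads. The 4 calls were the same with edgeR, and limma without a trend of the variance gave 0. Leaving out a single pool gave 11 collagen calls without control pool 3, 7 without control pool 2, 1 without mutant pool 1 or mutant pool 2, and 0 without control pool 1 or mutant pool 3. Calls over all genes, 86 with every pool, moved the same way. They were 468 without control pool 3, 147 without control pool 2 and 1 without control pool 1. Without mutant pools 1 to 3 they were 12, 21 and 1.

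Below that threshold the collagen values lay mostly on the same side. At an unadjusted p under 0.05, 21 of the 44 collagen genes (47.7%) were higher in the mutant lungs, against 6.67% of all tested genes, and 1 (*Col27a1*, 2.27%) was lower, against 6.89% of all genes. For 19 collagen genes (43.2%) every mutant pool lay above every control pool, where 9.77% of all genes did so. For 1 collagen gene, again *Col27a1*, every mutant pool lay below every control pool, where 10.5% of all genes did so. The median log2 fold change was 0.20 over the collagen genes and -0.0021 over all tested genes. Collagen genes together gave 0.658%, 0.688% and 0.665% of all normalized counts in control pools 1 to 3, against 0.786%, 0.814% and 0.791% in mutant pools 1 to 3, so that each mutant pool was above each control pool. When the libraries were scaled to the mesenchymal markers instead, no collagen gene passed the adjusted threshold and 6 were higher at an unadjusted p under 0.05. The log2 factors of that scaling were -0.002, -0.145 and 0.061 in control pools 1 to 3, against 0.036, 0.008 and 0.042 in mutant pools 1 to 3. Each factor was a mean of log2 values in which all 19 markers counted alike, so it need not follow their summed counts. In control pools 1 to 3, *Twist1* had 239, 137 and 431 and *Nkx2-3* had 10.8, 2.07 and 7.95, while *Tbx2* had 9330, 10805 and 7882. Whether the calls were lost through the level or the spread of these factors was not tested. The log2 fold changes under that scaling were 0.43 for *Col1a1*, 0.28 for *Col1a2*, 0.21 for *Col3a1* and 0.40 for *Col9a2*, against 0.49, 0.34, 0.26 and 0.46 without it. That scaling also changed the calls over all genes from 32 higher and 54 lower to 8 higher and 77 lower.

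**Figure D1:**
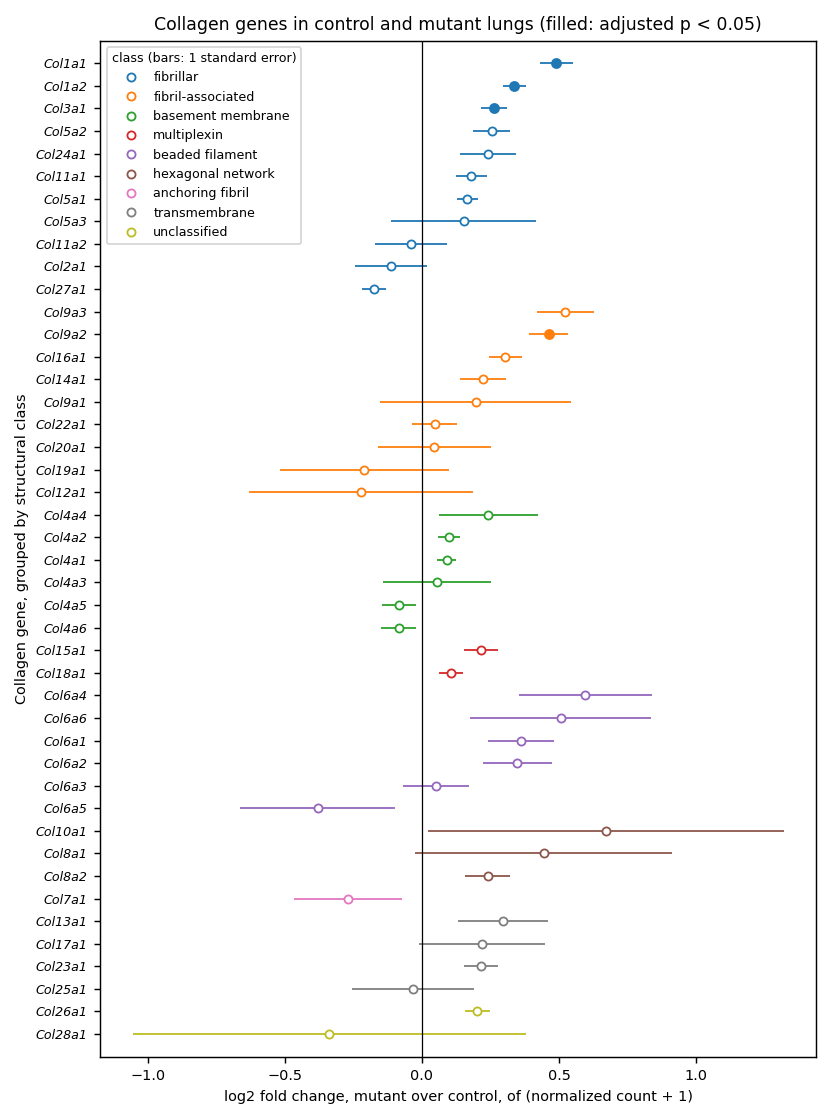
Log2 fold change of (normalized count + 1), mutant over control, for the 44 collagen genes (horizontal axis), grouped by structural class and ordered by size within a class (vertical axis). Points are limma estimates from 3 mutant and 3 control pools, bars are 1 standard error, and filled points mark the 4 genes with an adjusted p under 0.05, which lie between 0.26 and 0.49.

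The classes differed in abundance. Levels were compared between genes as normalized counts per kilobase of exon in the transcript with the longest coding sequence. Fibrillar collagens summed to 16053 ± 591 (mean ± SD) per kilobase in control pools and 19870 ± 705 in mutant pools, out of 24688 ± 700 and 29547 ± 568 for all collagen genes. The basement membrane class came next, with 2953 ± 64.5 per kilobase in control pools and 3109 ± 25.0 in mutant pools. Multiplexins summed to 1548 ± 38.5 and 1694 ± 25.2, and beaded filament collagens to 1225 ± 265 and 1527 ± 69.1, in control and mutant pools. The ratio of the mutant to the control mean of these sums was 1.24 for fibrillar, 1.25 for beaded filament, 1.17 for fibril-associated, 1.09 for multiplexin, 1.05 for basement membrane and 0.823 for anchoring fibril collagens. Without control pool 3 the ratio was 1.12 for beaded filament, 1.25 for fibril-associated, 1.23 for fibrillar and 0.943 for anchoring fibril collagens. In both groups the same 10 genes led the order of levels per kilobase: *Col3a1*, *Col1a2*, *Col1a1*, *Col4a1*, *Col5a2*, *Col18a1*, *Col26a1*, *Col4a2*, *Col5a1* and *Col6a2*. Several neighbours in the control order did not differ beyond their spread, among them *Col5a2* (1249 ± 124 per kilobase) and *Col18a1* (1196 ± 62.4), whereas *Col1a1* (3339 ± 186) and *Col4a1* (1663 ± 28.1) lay far apart. At the low end, *Col10a1* and *Col28a1* had under 1 normalized count per kilobase in each group.

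Fibrillar collagens held 3 of the 4 genes that rose. *Col1a1* encodes the α1 chain of type I collagen, the main collagen of most connective tissues. Its normalized counts were 18948, 21042 and 19410 in control pools 1 to 3, against 25994, 30254 and 27237 in mutant pools 1 to 3. The lowest mutant pool was above the highest control pool, and the fitted fold was 1.40 (log2 fold change 0.49 ± 0.06, limma adjusted p = 0.0125). *Col1a2*, which encodes the partner chain α2 of type I collagen, had normalized counts of 23413, 25406 and 23991 in control pools, against 30017, 31554 and 30346 in mutant pools. Again no pool of one group reached the other, with a fitted fold of 1.26 (log2 fold change 0.34 ± 0.04, limma adjusted p = 0.0128). *Col3a1* encodes type III collagen, which joins type I in the fibrils of soft and distensible tissues. It had the highest level per kilobase of any collagen gene, and its normalized counts were 27452, 28840 and 25880 in control pools, against 32229, 33941 and 32404 in mutant pools. Its groups were also apart, by a smaller margin (fitted fold 1.20, log2 fold change 0.26 ± 0.05, limma adjusted p = 0.047). The 3 genes together gave 51.1%, 52.4% and 50.4% of collagen counts in control pools, against 54.0%, 56.4% and 54.7% in mutant pools.

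Leaving out control pool 2 or control pool 3 ended none of these 3 calls, with limma adjusted p-values of 0.00806 and 0.00109 for *Col1a1*, 0.00806 and 0.00108 for *Col1a2*, and 0.0253 and 0.00694 for *Col3a1*. The other omissions ended some of them. *Col1a1* was kept without mutant pool 1 (adjusted p = 0.0382) or mutant pool 2 (adjusted p = 0.0474) and lost its call without control pool 1 (limma adjusted p = 0.192) or mutant pool 3 (adjusted p = 0.112), while its log2 fold change stayed between 0.43 and 0.54 whichever pool was left out. For *Col1a2* the limma adjusted p was 0.192 without control pool 1 and 0.0775, 0.0797 and 0.123 without mutant pools 1 to 3. For *Col3a1* the same 4 omissions gave limma adjusted p-values of 0.257, 0.155, 0.213 and 0.269.

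Of the upstream sequences in the RefSeq set for GRCm38.p6, 35 of the 44 collagen genes had an entry. Shown here are stretches before the RefSeq starts of 2 of the fibrillar genes that rose, because their transcripts moved in the same direction. Only bases outside annotated exons (GENCODE M21) are printed, and capitals mark a GC box (GGGCGG or its reverse CCGCCC) or a TATA box (TATAAA or its reverse TTTATA). The *Col1a2* stretch is chr6:4505370-4505492 and the *Col3a1* stretch is chr1:45311288-45311537, both on the plus strand of GRCm38.p6. The RefSeq start of *Col1a2* is at chr6:4505618, so the bases next to it are not printed. The *Col1a2* stretch also lies within the GENCODE gene, which starts at chr6:4504814. The *Col3a1* stretch runs up to its RefSeq start at chr1:45311538.
Col1a2: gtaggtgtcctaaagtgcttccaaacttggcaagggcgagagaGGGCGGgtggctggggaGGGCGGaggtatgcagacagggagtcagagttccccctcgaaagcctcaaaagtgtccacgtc
Col3a1: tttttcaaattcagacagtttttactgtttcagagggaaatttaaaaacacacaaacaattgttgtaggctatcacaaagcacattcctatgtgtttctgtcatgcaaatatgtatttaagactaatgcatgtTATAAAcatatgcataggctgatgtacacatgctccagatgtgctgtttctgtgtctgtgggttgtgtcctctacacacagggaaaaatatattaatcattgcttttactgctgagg
The printed stretches, which lie at different distances from the RefSeq starts, share no marked motif. The *Col1a2* stretch held 2 GC boxes, and the *Col3a1* stretch held 1 TATA box and no GC box. Over the 250 bases before each start, a GC box on either strand was found in 22 of 38 promoters of the 35 collagen genes (57.9%) and in 32.7% of 32851 promoters, and a TATA box in 5 of 38 (13.2%) and 12.4%. A CCAAT box (CCAAT or its reverse ATTGG) was found in 13 of 38 (34.2%) and 33.8%. *Col1a2* was among the 13 collagen genes with one in these 250 bases, although its printed stretch held none.

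The other fibrillar genes did not pass the adjusted threshold. Those named with values from every pool in this paragraph were chosen after their values were seen. Type V collagen is incorporated into type I fibrils and limits their width. The transcripts of 2 of its 3 chains, *Col5a1* and *Col5a2*, were higher in each mutant pool than in any control pool. *Col5a1* had normalized counts of 7035, 7135 and 7543 in control pools, against 8099, 8185 and 8058 in mutant pools (log2 fold change 0.17 ± 0.04, limma adjusted p = 0.11). *Col5a2*, which lies tail to tail with *Col3a1* on chromosome 1 at a distance of 24.6 kb, had 8392, 9028 and 7395 in control pools, against 9392, 10347 and 9773 in mutant pools (log2 fold change 0.25 ± 0.07, limma adjusted p = 0.145). Without control pool 3, *Col5a1* passed (adjusted p = 0.00793), and without control pool 2, *Col5a2* passed (adjusted p = 0.0457). *Col11a1* (0.18) and *Col24a1* (0.24) also had no overlap between groups on the log2 scale, and *Col11a1* passed without control pool 3 (limma adjusted p = 0.0143).

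Of the 44 collagen genes, 33 had a positive and 11 a negative log2 fold change, against 8495 and 8673 of all tested genes. In the fibrillar class 8 were positive and 3 negative. *Col27a1* was the only collagen gene with every mutant pool below every control pool. It encodes a fibrillar collagen with a short interruption in its helix that is abundant in developing cartilage. Its normalized counts were 2234, 2184 and 2204 in control pools, against 1925, 2036 and 1902 in mutant pools. The highest mutant value was below the lowest control value, and the fitted fold was 0.885, but the gene did not pass the test (log2 fold change -0.18 ± 0.04, limma adjusted p = 0.125). The cartilage collagen gene *Col2a1* overlapped between groups, with 2766, 2578 and 3737 in control pools, against 3167, 2384 and 2792 in mutant pools (log2 fold change -0.11 ± 0.13), and so did *Col11a2* (-0.04) and *Col5a3* (0.15). Of the 10 listed cartilage markers, 8 were tested and none passed the adjusted threshold. At an unadjusted p under 0.05, 1 was higher, where 6.67% of all tested genes were. Their sum was 4468 to 4660 in control pools and 4596 to 5152 in mutant pools, their median log2 fold change was 0.01, and 1 (Snorc) was listed at 0 in every pool. This sum is not a measure of cartilage alone. *Sox9*, whose product the study uses to mark the distal airway epithelium, had a mean of 1883 in control and 2046 in mutant pools. *Acan*, *Lect1* and *Comp* had means of 7.37, 14.4 and 3.32 in control pools.

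**Figure D2:**
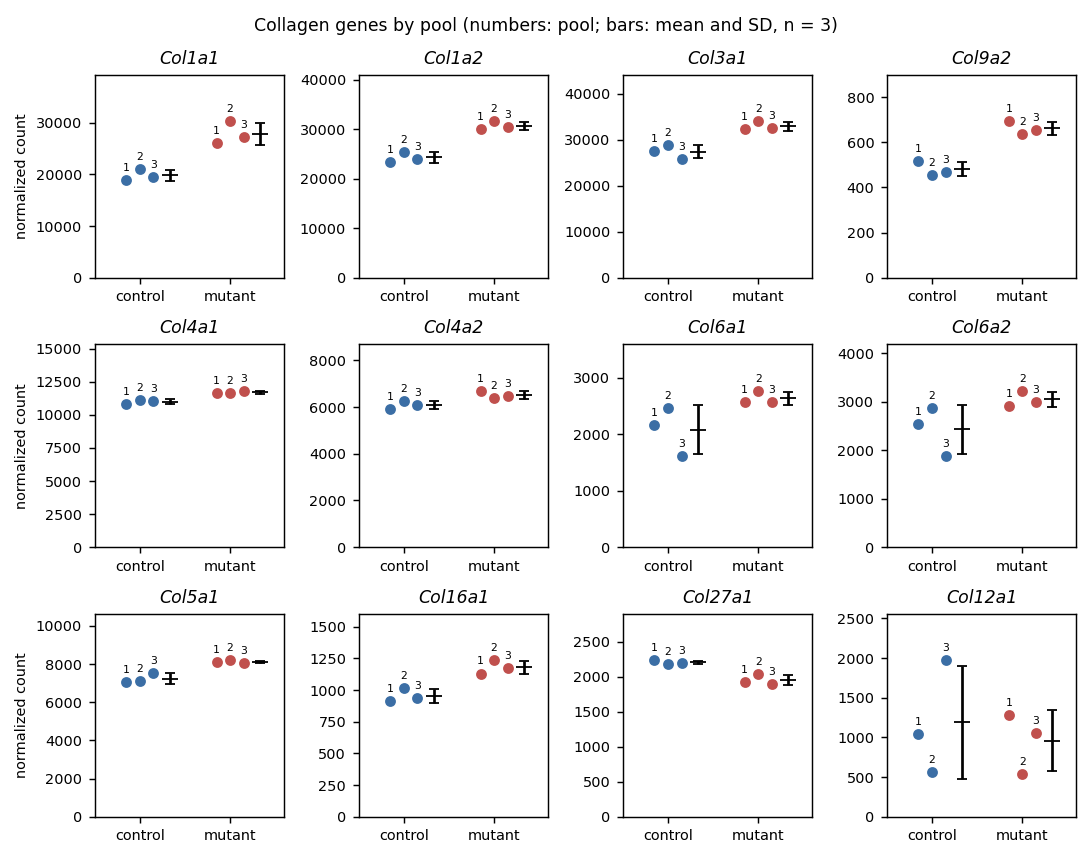
Normalized counts (vertical axes, starting at 0) of 12 collagen genes in 3 control pools (blue) and 3 mutant pools (red). Points are pools with their numbers and bars are the mean and SD, with the groups of Col1a1, Col1a2, Col3a1 and Col9a2 apart and those of Col12a1 overlapping widely.

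Fibril-associated collagens had 1 gene that rose. *Col9a2* encodes the α2 chain of type IX collagen, which coats type II fibrils in cartilage and is also made by some embryonic epithelia. Its normalized counts were 515, 456 and 469 in control pools, against 692, 635 and 655 in mutant pools. The groups were apart, with a fitted fold of 1.38 (log2 fold change 0.46 ± 0.07, limma adjusted p = 0.0345). The call was lost without control pool 1 (limma adjusted p = 0.192) and without mutant pools 1 to 3 (adjusted p = 0.139, 0.1 and 0.207). The 69 bases before the first annotated exon of *Col9a2*, at chr4:121039316-121039384 on the plus strand of GRCm38.p6, are shown for comparison with the fibrillar genes that rose.
Col9a2: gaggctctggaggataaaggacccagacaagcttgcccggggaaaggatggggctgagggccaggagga
These 69 bases held none of the 3 motifs, while the 250 bases before the RefSeq start of *Col9a2*, which reach into annotated exons and are not printed, held a GC box.

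The transcripts for the chains of type IX collagen did not vary in step from pool to pool. *Col9a3*, which encodes its α3 chain and is described here after its values were seen, had 312, 340 and 255 in control pools, against 451, 427 and 420 in mutant pools. Its groups did not overlap and its log2 fold change of 0.52 ± 0.10 exceeded that of *Col9a2* in size, but the limma adjusted p was 0.0686. Without control pool 2 or control pool 3 *Col9a3* passed (adjusted p = 0.0344 and 0.0176). *Col9a1*, which encodes the α1 chain, had 643, 326 and 1082 in control pools, against 859, 514 and 775 in mutant pools. Control pool 3 was 3.32 times control pool 2 for *Col9a1*, and the groups overlapped (log2 fold change 0.20 ± 0.35).

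Among the more abundant members of this class, *Col16a1*, which encodes a collagen made of many short helical stretches, had 914, 1018 and 937 in control pools, against 1131, 1234 and 1175 in mutant pools. The groups were apart (log2 fold change 0.30 ± 0.06, limma adjusted p = 0.065), and the gene passed without control pool 2 (adjusted p = 0.038) or control pool 3 (adjusted p = 0.0245). *Col14a1*, whose product binds the surface of type I fibrils, had 1400, 1373 and 1092 in control pools, against 1527, 1468 and 1488 in mutant pools (log2 fold change 0.22 ± 0.08, limma adjusted p = 0.282). Its control pool 3 was low, and without that pool the log2 fold change was 0.11. *Col12a1*, which encodes a close relative of type XIV collagen, had 1038, 565 and 1969 in control pools, against 1288, 534 and 1055 in mutant pools. The range within each group was wider than the difference between them (log2 fold change -0.22 ± 0.41). *Col19a1* (-0.21), *Col20a1* (0.05) and *Col22a1* (0.05) overlapped between groups. The median log2 fold change of the class was 0.20, and 0.07 without control pool 2 or 0.05 without mutant pool 1.

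Basement membrane collagen genes had no member that passed the adjusted threshold. At an unadjusted p under 0.05, 2 of the 6 were higher, against 6.67% of all tested genes. The log2 fold changes of this class ran from -0.09 to 0.24 with a median of 0.07. *Col4a1* encodes the α1 chain of the type IV network that is present in nearly all basement membranes. It had normalized counts of 10792, 11151 and 11052 in control pools, against 11625, 11680 and 11812 in mutant pools. The lowest mutant value was above the highest control value by a narrow margin (log2 fold change 0.09 ± 0.03, limma adjusted p = 0.288). *Col4a2*, which encodes the partner chain α2, had 5904, 6247 and 6070 in control pools, against 6687, 6370 and 6454 in mutant pools (log2 fold change 0.10 ± 0.04, limma adjusted p = 0.306). *Col4a5*, which encodes a chain of the networks of specialized basement membranes, had 1515, 1541 and 1728 in control pools, against 1570, 1508 and 1429 in mutant pools, and the groups overlapped (log2 fold change -0.08 ± 0.06). *Col4a6* (-0.09), *Col4a3* (0.06) and *Col4a4* (0.24) overlapped as well. The median of the class was 0.02 without mutant pool 2.

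The 6 type IV genes lie head to head at 3 sites, with neighbours transcribed away from each other, so that each gene shares its upstream region with another. *Col4a1* and *Col4a2* overlap by 22 bases at their starts on chromosome 8, *Col4a6* and *Col4a5* are 1308 bases apart on chromosome X, and *Col4a4* and *Col4a3* are 71 bases apart on chromosome 1. The gap between *Col4a4* and *Col4a3* is shown whole because it is all that separates their starts. It is chr1:82586850-82586920 of GRCm38.p6, read on the minus strand, towards *Col4a4*.
Col4a4 and Col4a3 gap: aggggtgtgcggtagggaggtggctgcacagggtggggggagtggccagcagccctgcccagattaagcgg
None of the 3 motifs was found in it. The levels of such neighbours differed all the same: *Col4a1* had 1663 ± 28.1 normalized counts per kilobase in control pools and *Col4a2* had 942 ± 26.6, while *Col4a3* had 4.18 ± 0.15 and *Col4a4* had 8.07 ± 1.29.

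Ratios between chains were taken within each pool, as log2 ratios of normalized counts, and are given without a test. *Col4a1* to *Col4a2* was 0.87, 0.84 and 0.86 in control pools, against 0.80, 0.87 and 0.87 in mutant pools. The transcripts of *Col4a1* and *Col4a2* thus kept a ratio that overlapped between groups, at 1.77 ± 0.02 per kilobase in control and 1.76 ± 0.05 in mutant pools. *Col1a1* to *Col1a2* was -0.31, -0.27 and -0.31 in control pools, against -0.21, -0.06 and -0.16 in mutant pools, without overlap. Per kilobase, that ratio was 0.735 ± 0.010 in control and 0.818 ± 0.043 in mutant pools. *Col1a1* to *Col3a1* was -0.53, -0.45 and -0.42 in control pools, against -0.31, -0.17 and -0.25 in mutant pools, also without overlap. Across classes, *Col1a1* to *Col4a1* was 0.81, 0.92 and 0.81 in control pools, against 1.16, 1.37 and 1.21 in mutant pools. The difference between the means of this last ratio was 0.40, the largest of the 5 ratios shown.

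**Figure D3:**
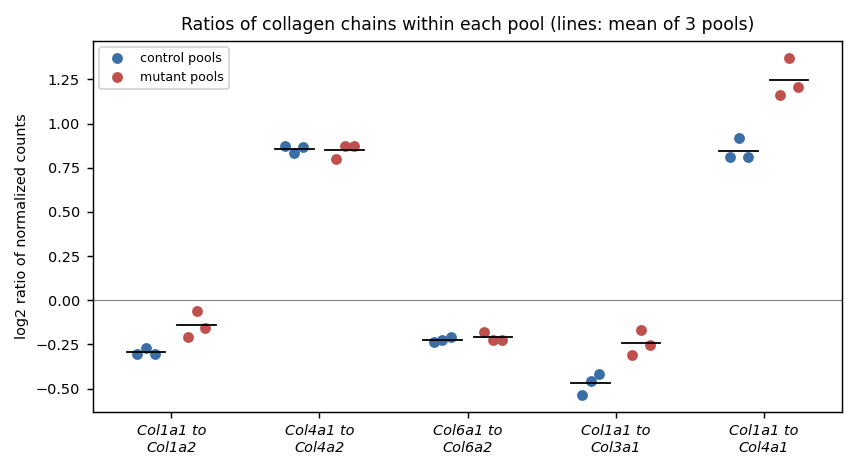
Log2 ratio of the normalized counts of collagen genes within each pool (vertical axis) for 5 ratios (horizontal axis), with control pools in blue, mutant pools in red and lines at the mean of 3 pools. The groups are apart for Col1a1 to Col1a2, Col1a1 to Col3a1 and Col1a1 to Col4a1, and overlap for Col4a1 to Col4a2 and Col6a1 to Col6a2.

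Multiplexins are collagens of basement membrane zones whose ends can be released as the anti-angiogenic fragments endostatin and restin. *Col18a1* had normalized counts of 6574, 6420 and 7087 in control pools, against 7303, 6977 and 7316 in mutant pools. Mutant pool 2 fell within the control range (log2 fold change 0.11 ± 0.05, limma adjusted p = 0.343), and without control pool 3 the gene passed (adjusted p = 0.0472). *Col15a1* had 1797, 1970 and 1682 in control pools, against 2127, 2170 and 2019 in mutant pools, without overlap (log2 fold change 0.22 ± 0.06, limma adjusted p = 0.159).

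Beaded filament collagens, the chains of type VI collagen that form microfibrils around cells, had no member that passed. At an unadjusted p under 0.05, 3 of the 6 were higher, against 6.67% of all tested genes. *Col6a2* had normalized counts of 2541, 2879 and 1872 in control pools, against 2919, 3223 and 3001 in mutant pools. *Col6a1*, its neighbour on chromosome 10, had 2154, 2468 and 1620 in control pools, against 2573, 2763 and 2564 in mutant pools. For both genes control pool 3 was the lowest of the 6 pools and no mutant pool reached down to the control range (log2 fold change 0.35 ± 0.12 and 0.36 ± 0.12, limma adjusted p = 0.249 and 0.221). Without control pool 3 the log2 fold changes were 0.17 for *Col6a2* and 0.19 for *Col6a1*. Their ratio to each other hardly moved, with *Col6a1* to *Col6a2* at -0.24, -0.22 and -0.21 in control pools, against -0.18, -0.22 and -0.23 in mutant pools on the log2 scale. *Col6a3*, which encodes the third chain of the common form, had 630, 769 and 509 in control pools, against 652, 638 and 659 in mutant pools (log2 fold change 0.05 ± 0.12). *Col6a6*, described after its values were seen, had 259, 430 and 127 in control pools, against 330, 376 and 329 in mutant pools (log2 fold change 0.51 ± 0.33, and 0.04 without control pool 3). *Col6a4* (0.60) and *Col6a5* (-0.38) overlapped between groups at mean normalized counts of 42.3 and 26.0. The median log2 fold change of the class was 0.35, and 0.11 without control pool 3.

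Transmembrane collagens span the cell membrane with their helices outside. *Col23a1* had normalized counts of 1692, 1618 and 1888 in control pools, against 2054, 1915 and 2057 in mutant pools, without overlap (log2 fold change 0.22 ± 0.06, limma adjusted p = 0.164, and 0.0101 without control pool 3). *Col13a1* had 746, 876 and 511 in control pools, against 805, 962 and 798 in mutant pools, and the control range took in mutant pools 1 and 3 (log2 fold change 0.30 ± 0.16, 0.07 without control pool 3 and 0.46 without control pool 2). *Col25a1* had 439, 331 and 679 in control pools, against 501, 363 and 505 in mutant pools (log2 fold change -0.03 ± 0.22). *Col17a1*, a component of the hemidesmosomes that hold epithelia to the basement membrane, overlapped (0.22).

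In the hexagonal network class, *Col8a2* had normalized counts of 369, 401 and 374 in control pools, against 425, 495 and 433 in mutant pools, without overlap (log2 fold change 0.24 ± 0.08, limma adjusted p = 0.23). *Col8a1*, whose product assembles with that of *Col8a2* around vessels, had 86.4, 42.4 and 163 in control pools, against 167, 60.8 and 150 in mutant pools, and the groups overlapped (log2 fold change 0.44 ± 0.47). *Col10a1*, the marker collagen of hypertrophic cartilage, had 2.95, 0 and 0.994 in control pools, against 3.07, 0.98 and 2.94 in mutant pools, which is 0 to 3 reads per pool, so that a difference was not detectable at this depth. The anchoring fibril gene *Col7a1*, whose product ties the epithelial basement membrane to the stroma, had 68.8, 70.3 and 100 in control pools, against 62.3, 77.5 and 56.9 in mutant pools (log2 fold change -0.27 ± 0.20, and -0.09 without control pool 3). Of the unclassified genes, *Col26a1* had 2952, 2998 and 2927 in control pools, against 3577, 3237 and 3402 in mutant pools. Its groups were apart (log2 fold change 0.20 ± 0.05, limma adjusted p = 0.0963), and it passed without control pool 3 (adjusted p = 0.0376). *Col28a1* had 2.95, 2.07 and 0 in control pools, against 1.02, 0 and 1.96 in mutant pools, also 0 to 3 reads.

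Many collagen genes varied widely between control pools. Of the 42 collagen genes with a mean normalized count of at least 10, 16 (38.1%) had a coefficient of variation (SD over mean) above 20% over the 3 control pools, against 14.2% of all tested genes at that level. Over the mutant pools 5 of 42 (11.9%) did, against 10% of all genes. In *Col12a1* the coefficient was 60.0% in control pools, where counting of reads alone gives 3.05%. Control pool 3 was an extreme in 15 of the 16 variable genes. The same held for 84.8% of the 2067 tested genes with such a spread in control pools. Control pool 3 was the lowest control pool for 8 of the 16, which included all 6 type VI genes as well as *Col13a1* and *Col17a1*. In the other 7 it was the highest control pool (*Col2a1*, *Col7a1*, *Col8a1*, *Col9a1*, *Col12a1*, *Col19a1* and *Col25a1*). In 6 of these 7 (all but *Col7a1*), pool 2 was the lowest of both the control and the mutant pools. These 6 are 37.5% of the 16 variable collagen genes, and pool 2 was lowest in both groups for 24.5% of the 2067 genes. Pools with the same number do not hold the same embryos. The source of this spread was not tested.

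**Figure D4:**
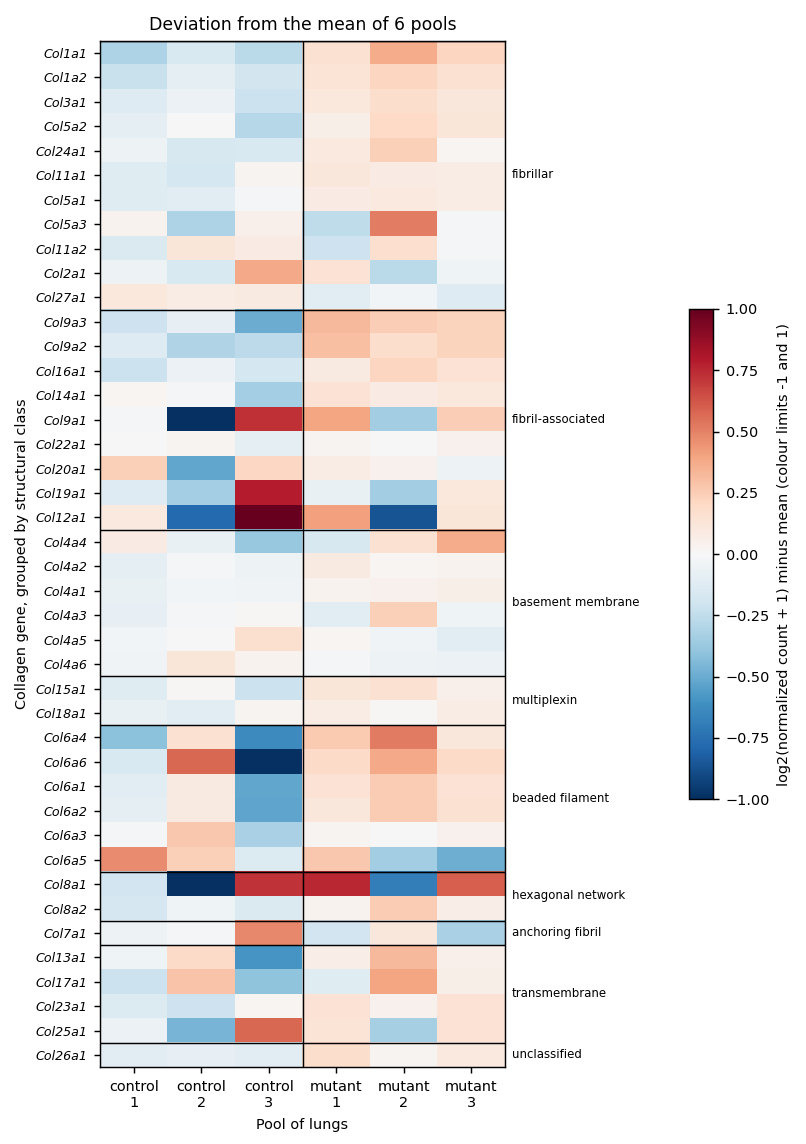
Deviation of log2(normalized count + 1) from the mean of the 6 pools (colour, limited to the range from -1 to 1) for the 42 collagen genes with a mean of at least 10 (vertical axis, by structural class) in each pool (horizontal axis). Control pool 3 is lowest among controls for the type VI genes and highest for Col12a1, Col9a1 and Col19a1, and the mutant pools lie above the control pools for the fibrillar genes at the top.

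Genes that act on collagen chains were examined by lists chosen for their function. The list for chain modification and folding in the endoplasmic reticulum held 20 genes, of which 15 had a positive and 5 a negative log2 fold change, with a median of 0.07. At an unadjusted p under 0.05, 7 were higher and 0 lower, against 6.67% and 6.89% of all tested genes. At the adjusted threshold 1 rose, where 0.186% of all tested genes did. That gene was *Fkbp14*, a prolyl isomerase that helps collagens fold, and its normalized counts were 529, 522 and 541 in control pools, against 664, 718 and 664 in mutant pools. The groups were apart (log2 fold change 0.36 ± 0.06, limma adjusted p = 0.0398), but the call was kept only without control pool 3 (adjusted p = 0.0105) when each pool was left out in turn, the others giving 0.0527 without control pool 2 and 0.245, 0.139, 0.171 and 0.21 without control pool 1 and mutant pools 1 to 3. With a replicate block the adjusted p was 0.0628.

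No gene passed the adjusted threshold in the other lists. Their counts at an unadjusted p under 0.05 stand beside 6.67% higher and 6.89% lower over all tested genes. Of 13 genes for propeptide removal and crosslinking, 10 had a positive and 3 a negative log2 fold change, 3 were higher and 0 lower at an unadjusted p under 0.05, and the median was 0.06. *Lox*, which starts the crosslinking of collagen and elastin and had the lowest p of the list, had 3188, 3587 and 2701 in control pools, against 3616, 4108 and 3523 in mutant pools, with overlap (log2 fold change 0.25 ± 0.09, limma adjusted p = 0.263). Of 14 tested genes for fibril surface proteins, 13 had a positive and 1 a negative log2 fold change, with 5 higher and 0 lower at an unadjusted p under 0.05, and *Dpt* was listed at 0 in every pool. The median of this list was 0.29, and 0.15 without control pool 3. Its gene with the lowest p was *Sparc*, whose product binds collagen and is needed for fibril assembly, with 15432, 15518 and 15261 in control pools, against 17522, 16506 and 16737 in mutant pools (log2 fold change 0.14 ± 0.04, limma adjusted p = 0.153). Of 12 collagen receptors, 7 had a positive and 5 a negative log2 fold change, 2 were higher and 1 lower at an unadjusted p under 0.05, and the median was 0.05. *Ddr1*, a receptor tyrosine kinase for collagen found mainly on epithelia, had 2065, 1919 and 2166 in control pools, against 2270, 2303 and 2440 in mutant pools (log2 fold change 0.19 ± 0.05, limma adjusted p = 0.16, and 0.0245 without control pool 3).

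Marker lists of other cells in the lung moved as follows. For comparison, 6.67% of all tested genes were higher and 6.89% lower at an unadjusted p under 0.05. At the adjusted threshold 0.186% rose and 0.315% fell. Of 12 endothelial markers, 11 had a positive log2 fold change (median 0.18), none passed the adjusted threshold while 7 were higher at an unadjusted p under 0.05, and their sum was 14859 to 16851 in control pools and 17240 to 17873 in mutant pools. Smooth muscle markers summed to 7864 to 9526 in control pools and 10177 to 11169 in mutant pools, with 7 of 8 positive (median 0.25), none past the adjusted threshold and 4 higher at an unadjusted p under 0.05. Of 8 mesothelial markers, 7 were positive (median 0.20), with 4 higher and 0 lower at an unadjusted p under 0.05. The 1 that rose, *Wt1*, is named because it was the single call of this list. It had 759, 764 and 743 in control pools, against 886, 971 and 962 in mutant pools (log2 fold change 0.31 ± 0.06). Its limma adjusted p of 0.0496 was close to the threshold. The sum of the 8 markers was 8123 to 8857 in control pools and 9350 to 9963 in mutant pools. Heart muscle markers summed to 1204 to 1308 in control pools and 923 to 1010 in mutant pools, and none of 8 passed (0 higher and 2 lower at an unadjusted p under 0.05). Neural markers summed to 2275 to 2445 and 1902 to 2406, and none of 8 passed (0 higher and 2 lower at an unadjusted p under 0.05). In every marker list other than cartilage no gene was at 0 in all pools. The part of these cells in the collagen values was not tested.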

How the data were processed

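Whole lungs of 11.5 *dpc* embryos had been pooled by genotype (3 control and 3 mutant pools of 3 or 4 lungs) and sequenced on the BGISEQ-500 platform. The submitters' processing notes name Trim Galore, HISAT2, featureCounts, DESeq2 and the mm10 build, with no versions given, and neither the annotation nor the strand setting is given in the sources used here. The authors deposited a signal value per gene and library, reads scaled by a size factor per library (normalized counts), beside their own comparison (mean, log2 fold change and its standard error, test statistic, p-value and adjusted p-value), which was not used. All values of each library were whole multiples of 1 step (100% within 0.01), which gave the reads per library and the edgeR alternative. Groups and replicate numbers came from the labels.

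The main test was limma 3.58.1 in R 4.3.3 (lmFit, eBayes with trend) on log2(normalized count + 1), for genes with at least 1 in at least 3 libraries, without a block. Benjamini-Hochberg adjustment covered 17168 genes, at a threshold of 0.05. Fold changes on this scale understate those of low genes. The code was tested on simulated data. Alternatives were edgeR 4.0.16 (quasi-likelihood, on recovered reads), limma without trend, a pseudocount of 0.1, no filter, at least 10 in every library, upper-quartile scaling, scaling to 19 mesenchymal markers, a replicate block, and leaving out each pool. Coordinates and exon lengths are from GENCODE M21, of the same assembly as mm10. Of the list symbols, 8 were found under older symbols through RefSeq.

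Values in every pool are given for collagen genes that passed, for up to 3 members of each class with the largest mean, for *Rptor*, and for the listed genes that passed or had the lowest p. Other members are named with their log2 fold change, and exceptions are marked. The members, classes, lists and tests were chosen with earlier results of these data known. With 3 pools per group, the limma p-values set the difference between groups against the spread between pools. That spread was moderated by a trend of the variance over all tested genes.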

Additional observations from a re-analysis of the deposited data

How the results depend on the processing

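With pseudocount 0.1, upper-quartile scaling, the replicate block and edgeR on recovered reads, the same 4 collagen genes were called (the replicate block called 71 of all genes, against 86). *Col3a1* was lost without a filter on low values (limma adjusted p = 0.0608) and with at least 10 in every library (0.0526), which left 3. With limma without trend 0 collagen genes and 8 of all genes were called. Scaling to mesenchymal markers gave 0 collagen calls and 6 collagen genes higher at an unadjusted p under 0.05, in place of 21, with log2 fold changes of 0.432, 0.279, 0.206 and 0.404 for *Col1a1*, *Col1a2*, *Col3a1* and *Col9a2*. Leaving out each pool gave 0 to 11 collagen calls and 1 to 468 calls over all genes. The most came without control pool 3 (11) and control pool 2 (7), 1 came without mutant pool 1 or mutant pool 2, and 0 without control pool 1 or mutant pool 3. The cause was not tested. *Col1a1* was called in 4 of these 6 fits, and *Col1a2*, *Col3a1* and *Col9a2* in 2 each. At most 1 collagen gene was lower at an unadjusted p under 0.05 in any fit.

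The log2 fold change changed sign for genes with small values or wide spread. Scaling to mesenchymal markers turned *Col20a1* (-0.012), *Col22a1* (-0.0118), *Col4a3* (-0.00243) and *Col6a3* (-0.00622). With 1 pool left out, the range crossed 0 for *Col11a2* (-0.133 to 0.0527), *Col12a1* (-0.669 to 0.231), *Col19a1* (-0.433 to 0.129), *Col20a1* (-0.204 to 0.176), *Col25a1* (-0.275 to 0.243), *Col28a1* (-0.938 to 0.0923), *Col2a1* (-0.219 to 0.0491), *Col4a3* (-0.0495 to 0.124), *Col5a3* (-0.0638 to 0.321), *Col6a3* (-0.0988 to 0.198), *Col8a1* (-0.0446 to 0.915) and *Col9a1* (-0.254 to 0.609). The sign held but the size moved by over 1.5 times for *Col4a4* (0.115 to 0.382), *Col4a5* (-0.12 to -0.0253), *Col6a5* (-0.611 to -0.23), *Col6a6* (0.0435 to 0.918), *Col7a1* (-0.394 to -0.0946), *Col13a1* (0.0748 to 0.463) and *Col17a1* (0.0724 to 0.417), among others.

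Same-numbered pools deviated from their group means with correlations of -0.0276, 0.219 and 0.0711 over 12501 genes for pools 1, 2 and 3, so the numbers were not taken to pair samples. Depth limits *Col10a1* and *Col28a1*, with 0 to 3 reads per pool.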

Other observations

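Further ratios between collagen chains were computed after the data were seen and are given as values on the log2 scale of normalized counts, without a test. *Col4a5* to *Col4a6*, whose genes lie head to head on chromosome X, was 1.38, 1.25 and 1.50 in control pools 1 to 3, against 1.41, 1.39 and 1.33 in mutant pools 1 to 3, so the groups overlapped. *Col5a1* to *Col5a2* was -0.25, -0.34 and 0.03 in control pools, against -0.21, -0.34 and -0.28 in mutant pools, with control pool 3 apart from the other 5. *Col9a2* to *Col9a3* was 0.72, 0.42 and 0.88 in control pools, against 0.62, 0.58 and 0.64 in mutant pools. The widest of these ratios was *Col9a2* to *Col9a1*, with -0.32, 0.48 and -1.21 in control pools, against -0.31, 0.31 and -0.24 in mutant pools. It was highest in pool 2 of both groups.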
